A study of Homo sapiens with 6 samples.

Results

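The transcripts of 7 cyclins and 3 cyclin-dependent kinases (CDKs) were followed in HCT116 cells, an established human colorectal carcinoma line, after knockdown of PLEK2. They were the rows of the deposited table whose gene symbol was CCND1, CCND3, CCNE1, CCNE2, CCNA2, CCNB1, CCNB2, CDK2, CDK4 or CDK6, that is 10 of its 17047 genes. PLEK2 encodes pleckstrin-2, a membrane and cytoskeletal protein. All 10 passed the filter on low counts, which kept 12959 genes. There were 3 libraries from cells carrying a non-targeting shRNA (shNC) and 3 from cells carrying PLEK2 shRNA, each made from poly(A) RNA. All cells were transduced with a viral vector, and the study lists a single shRNA sequence against PLEK2, so a second one was not compared. The libraries of each group are numbered 1 to 3. Nothing in the labels says whether they came from separate cultures, so the p-values measure only the spread between these libraries.

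Cyclins are proteins whose amounts rise and fall through the cell cycle, and each switches on the CDK it binds. D-type cyclins with CDK4 or CDK6 act in G1 and respond to growth signals, E-type cyclins with CDK2 act at entry into S phase, cyclin A2 acts in S phase and G2, and B-type cyclins with CDK1 act at entry into mitosis. The mRNAs of cyclins E, A and B themselves vary through the cycle, whereas D-type cyclins depend more on external signals. In bulk RNA a different mix of cells in each phase and a different amount of RNA per cell cannot be told apart.

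Depth was alike, with between 14377532 and 15602732 estimated counts per library. Levels are given as CPM (counts brought to a common library size with TMM factors), and a log2 fold change is PLEK2 shRNA over shNC. PLEK2 stood at 86.0, 72.6 and 82.9 CPM in shNC replicates 1, 2 and 3 and at 16.02, 32.2 and 34.9 CPM in PLEK2 shRNA replicates 1, 2 and 3. The groups did not overlap, and the log2 ratio was larger in pair 1 (-2.41) than in pairs 2 (-1.17) and 3 (-1.24). The fitted change was -1.54 ± 0.24 (log2, SE) without a replicate block, with an adjusted p of 0.684 by edgeR and 5.09e-07 by DESeq2. With the block it was -1.57 ± 0.17, with an edgeR adjusted p of 0.00106.

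No cyclin or CDK of the 10 had an adjusted p under 0.05 by edgeR, whether or not the replicate number was a block, or by DESeq2. Over all genes, 0% passed without the block by edgeR, and 12 of 12959 genes by DESeq2. With the block edgeR called 0.123% higher and 0.725% lower. An unadjusted p under 0.05 was reached by 1 of the 10 (CCNE2) without the block, against 3.09% of all genes. With the block it was reached by 3 of the 10 (CCND1, CCNE1 and CCNE2), against 18.3% of all genes. None of the 10 reached both a 1.5-fold change and an unadjusted p under 0.05, against 0.463% of all genes. Their median log2 fold change was 0.01, against -0.002 for all genes tested.

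**Figure D1:**
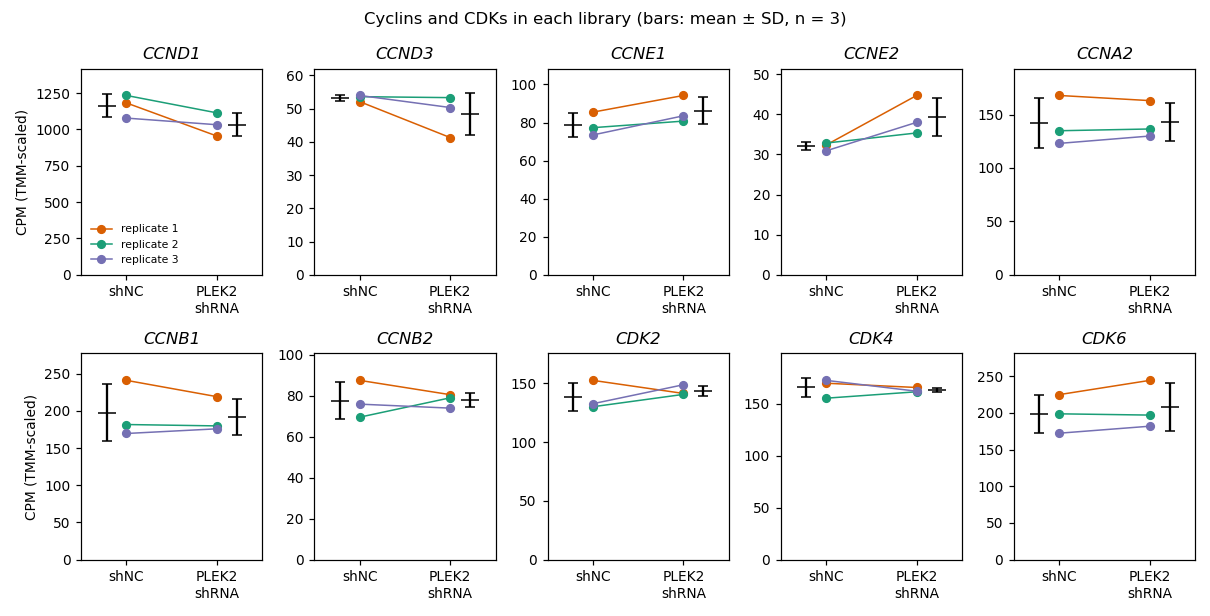
TMM-scaled CPM of the 10 genes in each library, with same-numbered libraries joined by a line and black bars at the mean ± SD of each group (n = 3). The CCNE2 points of the PLEK2 shRNA libraries lie above all shNC points, and the points of the other 9 genes overlap between groups.

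In TMM-scaled CPM the D-type cyclins were lower in each PLEK2 shRNA library than in the shNC library of the same number, by amounts that did not pass the test. CCND1, a G1 cyclin that responds to growth signals, measured 1182, 1234 and 1078 CPM in shNC replicates 1, 2 and 3 and 954, 1114 and 1032 CPM in the PLEK2 shRNA replicates. The highest shRNA library stood above the lowest shNC library, so the groups overlapped. The log2 ratios within pairs 1, 2 and 3 were -0.31, -0.15 and -0.06, and the fitted change was -11.3% (log2 -0.17 ± 0.087 SE, edgeR adjusted p = 0.968). With the replicate block the 95% interval ran from -0.30 to -0.05 on the log2 scale, with an edgeR adjusted p of 0.152. CCND3, which binds the same kinases, measured 52.1, 53.6 and 53.9 CPM in shNC and 41.3, 53.3 and 50.3 CPM with PLEK2 shRNA. Most of its difference sat in pair 1 (log2 ratio -0.33), and pair 2 differed by -0.008. With library totals alone the pair 2 ratio of CCND3 turned to 0.01, and in FPKM to 0.02. Its fitted change was -0.14 ± 0.11 (log2, SE), with an edgeR adjusted p of 0.297 under the block. CCND2, the remaining D-type cyclin, had at most 1 count in any library.

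The E-type cyclins were higher in each PLEK2 shRNA library than in its same-numbered control, again without passing the test. CCNE1, which activates CDK2 at the start of S phase, measured 85.4, 77.3 and 73.5 CPM in shNC and 94.2, 80.7 and 83.5 CPM with PLEK2 shRNA. Replicate 1 was highest in both groups, and the groups overlapped. The pair log2 ratios were 0.14, 0.06 and 0.19, and the fitted change was 9.43% (log2 0.13 ± 0.096 SE). The edgeR adjusted p was 0.968 without the block and 0.246 with it. CCNE2, its close relative with the same partner, measured 32.3, 32.8 and 30.9 CPM in shNC and 44.7, 35.3 and 38.0 CPM with PLEK2 shRNA. All 3 shRNA libraries stood above all 3 shNC libraries, with replicate 1 highest. The pair log2 ratios were 0.47, 0.11 and 0.30, and the fitted change was 22.9% (log2 0.30 ± 0.11 SE, 95% interval 0.05 to 0.55). Its edgeR p was 0.0254 unadjusted and 0.968 adjusted, and with the block 0.00242 unadjusted and 0.0914 adjusted. Without PLEK2 shRNA replicate 1 the log2 fold change was 0.20.

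The direction within pairs has to be read against all genes. Of the 10 genes, 2 (CCNE1 and CCNE2) were higher in all 3 pairs, as were 19.9% of all genes, and 2 (CCND1 and CCND3) were lower in all 3, as were 21.1%. A share of 2 in 10 therefore lay near the background in either direction. With library totals in place of TMM, 4 of the 10 (CCNE1, CCNE2, CCNA2 and CDK6) were higher in all 3 pairs, against 26.8% of all genes, and only CCND1 was lower, against 15.8%. The deposited FPKM gave the same 4 and the same 1, against 26.2% and 15.2%. Without overlap between groups, 1 of the 10 (CCNE2) was higher, against 4.08% of all genes, and 0 were lower, against 5.12%.

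**Figure D2:**
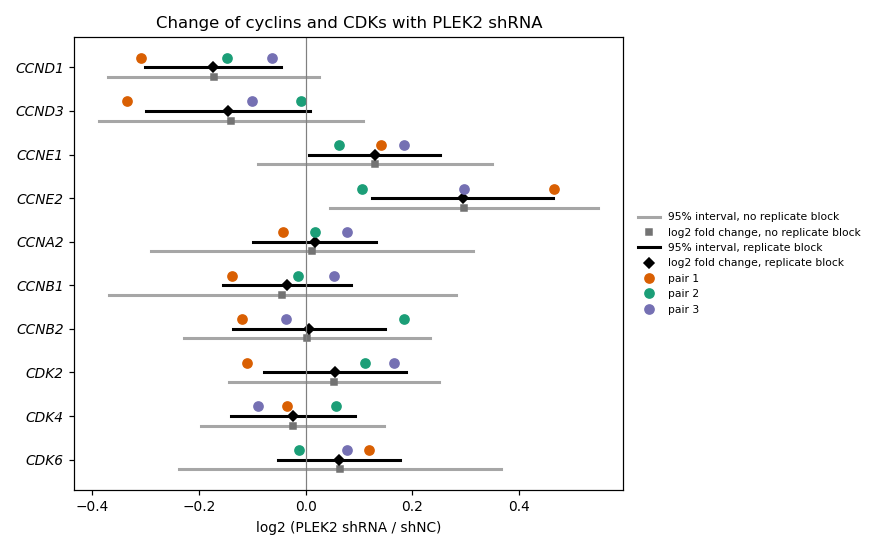
Log2 ratio of PLEK2 shRNA to shNC for each gene: coloured points are the 3 same-numbered pairs, black diamonds and bars the edgeR estimate and 95% interval with the replicate block, and grey squares and bars the estimate and interval without it. The CCNE2 interval lies above 0 in both fits, and the interval with the block lies below 0 for CCND1 and above 0 for CCNE1, where 18.3% of all genes had an unadjusted p under 0.05.

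The S phase and mitotic cyclins showed small differences between groups, and CCNA2 and CCNB1 showed larger ones between replicate numbers. CCNB1, which with CDK1 drives entry into mitosis, measured 241, 182 and 170 CPM in shNC replicates 1, 2 and 3 and 219, 180 and 176 CPM with PLEK2 shRNA. Replicate 1 was highest in both groups, while the pair log2 ratios of -0.14, -0.01 and 0.05 differed in sign. CCNA2, the partner of CDK2 and CDK1 from S phase on, measured 168, 135 and 123 CPM in shNC and 163, 136 and 130 CPM with PLEK2 shRNA. Its order across replicate numbers was that of CCNB1, and its pair log2 ratios were -0.04, 0.02 and 0.08. CCNB2, the other B-type cyclin, measured 87.4, 69.5 and 75.8 CPM in shNC and 80.4, 78.9 and 73.9 CPM with PLEK2 shRNA. Here the control libraries spread from 69.5 to 87.4 CPM and covered all of the shRNA libraries. The 95% intervals of the log2 fold change with the block were -0.15 to 0.08 for CCNB1, -0.10 to 0.13 for CCNA2 and -0.14 to 0.15 for CCNB2. Changes of up to about these sizes were thus not distinguished from 0.

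CCNA2, CCNB1 and CCNB2 are classic targets of cell cycle-dependent transcription, for which CCAAT boxes bound by NF-Y and the cell cycle genes homology region (CHR) are known promoter elements. The 140 bases before their RefSeq starts are shown because CCNA2 and CCNB1 moved together over the 6 libraries, with CCNB2 for comparison. They are read on the gene's strand. Capitals mark CCAAT (or ATTGG, the same box on the opposite strand) and TTTGAA, the only form of the CHR that was searched. Other forms of the CHR were not searched, so a sequence without marked TTTGAA may still hold one. The GRCh38.p14 positions are chr4:121823884-121824023 (minus strand) for CCNA2, chr5:69167010-69167149 (plus) for CCNB1 and chr15:59105006-59105145 (plus) for CCNB2.
CCNA2: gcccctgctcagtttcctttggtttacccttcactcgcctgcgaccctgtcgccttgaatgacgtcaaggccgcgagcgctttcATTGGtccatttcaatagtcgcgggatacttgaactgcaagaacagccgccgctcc
CCNB1: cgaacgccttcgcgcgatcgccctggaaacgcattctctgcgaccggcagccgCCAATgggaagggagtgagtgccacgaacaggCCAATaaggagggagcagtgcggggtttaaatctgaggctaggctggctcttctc
CCNB2: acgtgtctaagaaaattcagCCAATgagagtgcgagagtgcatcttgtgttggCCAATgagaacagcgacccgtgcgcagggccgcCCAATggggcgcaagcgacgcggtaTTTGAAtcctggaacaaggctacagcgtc

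CCNB1 held CCAAT 87 and 55 bases before the start, 32 bases apart. CCNB2 held it 120, 87 and 54 bases before the start, with steps of 33 and 33 bases, once more 244 bases before it, and TTTGAA 29 bases before it. CCNA2 held a single box, 56 bases before the start. CCND3, a D-type cyclin, also held CCAAT in 2 of its 3 windows, 136 and 64 bases before their starts. RefSeq promoter windows, from 250 bases before to 50 after the start, were found for 7 of the 10 genes. Over 35116 such windows searched on both strands, CCAAT was in 34.6%, at least 2 copies in 10.8%, at least 4 copies in 0.991% and TTTGAA in 15.2%. The letters of 2 E2F sites (TTTCCCGC, in 1.63% of windows, and TTTGGCGC, in 0.652%) and of the TATA box (TATAAA, in 11.5%) were not found in the windows of the 7 genes. Other forms of the E2F site were not searched, so these windows may still hold one. Neither CCAAT nor TTTGAA was found in the windows of CCNE1, CDK4 and CDK6. Of these, CCNE1 and CDK6 were, like CCNA2 and CCNB1, highest in replicate 1 of both groups. The share of all genes with this order was not counted, and the part of these letters in the levels was not tested. These matches describe letters in a reference and say nothing of binding in these cells.

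The kinases differed little between groups. CDK2, the partner of cyclins E and A, measured 152, 130 and 133 CPM in shNC and 141, 141 and 149 CPM with PLEK2 shRNA. CDK4, which binds D-type cyclins, measured 170, 155 and 173 CPM in shNC and 166, 162 and 162 CPM with PLEK2 shRNA. The shRNA libraries of both genes lay within the range of the controls, and the block intervals were -0.08 to 0.19 for CDK2 and -0.14 to 0.09 for CDK4 (log2). CDK6, the other D-type partner, measured 225, 199 and 172 CPM in shNC and 244, 197 and 182 CPM with PLEK2 shRNA. In both groups it was highest in replicate 1 and lowest in replicate 3, and the interval of its change was -0.05 to 0.18 with the block. CDK1, the mitotic kinase, which is not among the 10, changed by 0.11 ± 0.15 (log2, SE, edgeR adjusted p = 0.968).

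The replicate number separated some of these genes more than the knockdown did. In the edgeR fit with both terms, the replicate term passed an adjusted p of 0.05 for CCNB1 (0.00161), CDK6 (0.00204) and CCNA2 (0.00231), that is for 3 of the 10, against 28.4% of all genes. The share among the 10 was thus near the background. On the log2 scale, replicate 1 exceeded the mean of replicates 2 and 3 by 0.46 in shNC and 0.30 in PLEK2 shRNA for CCNB1. The same differences were 0.38 and 0.29 for CCNA2 and 0.28 and 0.37 for CDK6. CCND3 went the other way, at -0.05 and -0.33, and CCND1 stood at 0.04 and -0.17. For CCNB2 they were 0.27 and 0.07, with an adjusted p of 0.172 for the term. In the 4 libraries left without replicate 1 of both groups, 0 of the 10 passed this test. With shNC replicate 1 alone left out 5 passed, and 5 with PLEK2 shRNA replicate 1 alone left out. In the latter 2 fits only 1 library carried the number 1. The share of all genes was not counted in these fits, so the counts are not a result about the 10 genes.

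The G2/M list, which shares no gene with the 10, was also higher in replicate 1. All 24 of its genes were higher there than the mean of replicates 2 and 3 in shNC (median log2 difference 0.41) and 20 of 24 in PLEK2 shRNA (median 0.24), against medians of 0.001 and -0.02 for all genes. For the S phase list the medians were 0.12 in shNC and -0.10 in PLEK2 shRNA. There 17 of 24 were higher in shNC and 7 of 24 in PLEK2 shRNA. The share of all genes higher in replicate 1 was not counted. CDK1 was higher in replicate 1 by 0.36 and 0.42. The part that a shift in cell cycle phase between libraries had in these values was not tested.

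**Figure D3:**
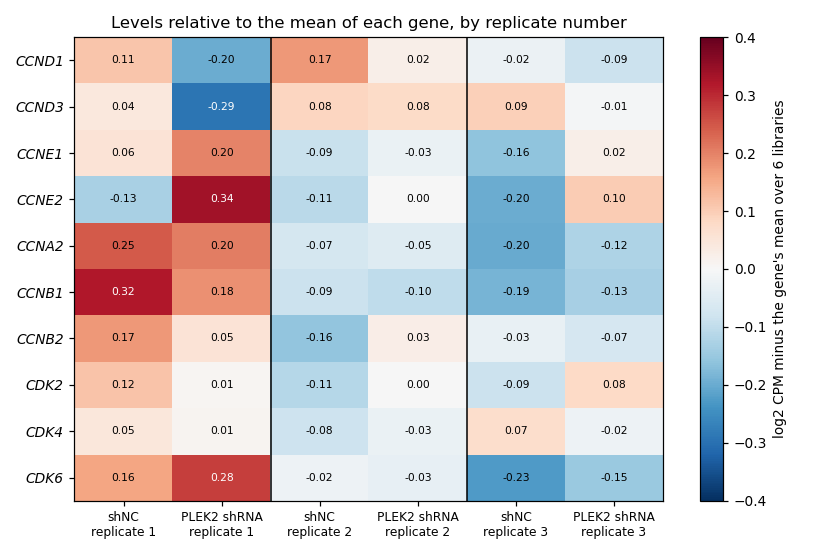
Log2 CPM of each gene minus its mean over the 6 libraries, with libraries of the same number side by side; red is above the mean and blue below. CCNA2, CCNB1 and CDK6 are above their means in both replicate 1 libraries and below them in the other 4, whereas CCND1 and CCND3 are lowest in PLEK2 shRNA replicate 1.

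The gene nearest to CCNB1 over the 6 libraries was PPP4R1, a regulatory subunit of protein phosphatase 4, with a root mean square difference in centred log2 CPM of 0.025 over 10160 genes compared. FNDC3A and the chaperone gene DNAJA1 followed at 0.038 each, and the median gene stood at 0.211. CCNA2 ranked 5, at 0.039, and CDK6 stood at 0.088, CCNB2 at 0.121 and CCND3 at 0.276. For CCND1 the nearest were CTH, which makes cysteine from cystathionine, at 0.022, ACTR8 at 0.024 and NFKBIB, an inhibitor of NF-κB, at 0.029. CCND3 stood at 0.085 from CCND1, CCNE1 at 0.209 and CCNE2 at 0.285, against a median of 0.171. All these distances share the same 6 libraries and are descriptions.

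Across genes, levels were compared per length, as FPKM, the fragments per kilobase of transcript scaled to the library total. CCND1 led at 264 FPKM (mean over 6 libraries, range 235 to 293), and its range did not meet that of the next gene. CCNB1 (96.0) and CDK4 (88.4) followed with overlapping ranges, CCNB1 being the higher in 4 of 6 libraries. CDK2 (66.0), CCNB2 (55.2), CCNA2 (52.2) and CCNE1 (47.9) formed a run in which neighbours overlapped, and the range of CDK4 lay above that of CDK2. CCND3 (27.1) was separated from CCNE1 above and from CDK6 (17.6) below. CDK6 and CCNE2 (13.8) overlapped in range, although CDK6 was higher within each of the 6 libraries. CCND1 made up 41.8% to 51.9% of the summed FPKM of the 7 cyclins.

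**Figure D4:**
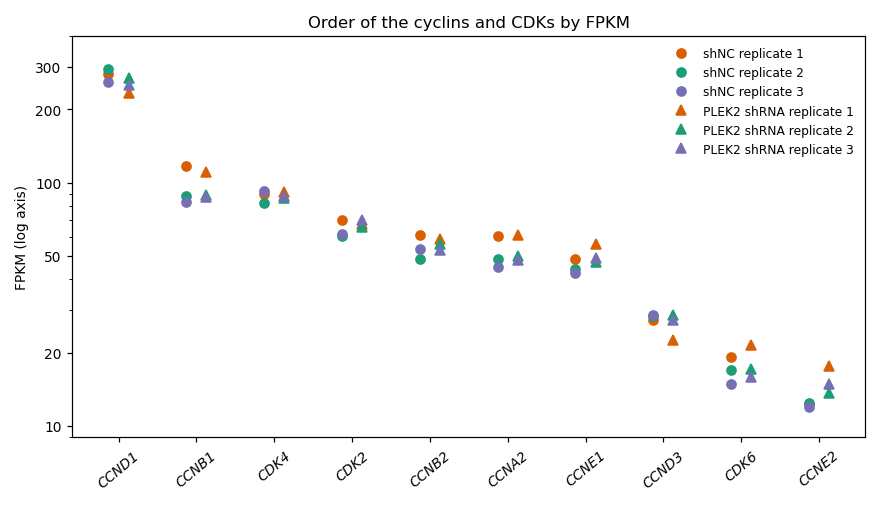
FPKM of the 10 genes on a log axis, ordered by their mean over 6 libraries, with circles for shNC and triangles for PLEK2 shRNA. CCND1 lies between 235 and 293 FPKM, above all other genes, and CCNE2 is lowest, between 11.97 and 17.6 FPKM.

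Within families, the FPKM of CCNE1 was 3.94, 3.55 and 3.56 times that of CCNE2 in shNC and 3.18, 3.46 and 3.29 times with PLEK2 shRNA. The groups did not overlap, with 3.69 ± 0.22 against 3.31 ± 0.14 (SD, n = 3 each). The 6 ratios looked at were chosen after the values were seen, so they are descriptions with no test. The ratio of CCND1 to CCND3 was 9.90 ± 0.76 in shNC and 9.67 ± 0.66 with PLEK2 shRNA, that of CCNB1 to CCNB2 was 1.76 ± 0.18 and 1.71 ± 0.16, and that of CDK4 to CDK6 was 5.25 ± 0.83 and 4.95 ± 0.67 (SD, n = 3 each). These 3 ratios overlapped between groups, as did CCNE1 to CDK2 and CCNA2 to CDK2.

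The counts of CCNE2, CCNA2 and CDK4 held decimals in all 6 libraries, which estimated counts do where a read is shared between genes. The decimals of CCNA2 completed those of EXOSC9 to whole numbers within 0.01 in every library, so reads of this pair were split and the CCNA2 level is uncertain by that split. No single partner of this kind was found for CCNE2 or CDK4.

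The proteins that restrain or activate CDKs were described from separate lists, chosen with earlier results known. Among 8 CDK inhibitors none passed without the block. With it 0.123% of all genes were called higher, and 1 of the 8 passed. This was CDKN1A, which encodes p21, an inhibitor of cyclin E and A kinases, with 214, 126 and 136 CPM in shNC and 299, 158 and 158 CPM with PLEK2 shRNA. Replicate 1 was highest in both groups, each pair was higher with the shRNA, and the groups overlapped. The log2 fold change was 0.35 ± 0.059 (SE) in the edgeR fit with the block, with an adjusted p of 0.0215, against 0.968 without it. The list's median log2 fold change was -0.09, with 5 of 8 genes below 0.

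Of 8 CDK activators none passed in either fit, and the median was 0.04. CCNH and MNAT1, which with CDK7 form the CDK-activating kinase, had log2 fold changes of 0.23 ± 0.10 and 0.20 ± 0.12 (SE). Both kinases that inhibit CDK1 by phosphorylation were measured, and neither passed. PKMYT1 stood at -0.26 ± 0.10, with an edgeR adjusted p of 0.0941 under the block, and WEE1 at -0.01 ± 0.099 (log2, SE). In the list of 14 genes of cyclin destruction none passed either, and the median was 0.06. RBX1, the RING subunit of SCF ligases, stood at -0.25 ± 0.099 and CDC20, the mitotic activator of the APC, at -0.18 ± 0.082 (log2, SE).

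A further pair of lists marks the phases themselves. The median log2 fold change of the 24 S phase genes was -0.04, and 16 of 24 lay below 0. Of 24 G2/M genes 1 was lower with the block, against 0.725% of all genes. This was PLK1, a kinase of mitotic entry, at -0.44 ± 0.081 (log2, SE, edgeR adjusted p = 0.0283). The median of the G2/M list was -0.03, and 14 of 24 lay below 0. Without the block none of either list passed in edgeR or DESeq2. Also without it, an unadjusted edgeR p under 0.05 was reached by 2 S phase and 1 G2/M genes, against 3.09% of all genes.

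Epithelial markers were present, with summed FPKM of 5059 to 5813 in shNC and 4220 to 5380 with PLEK2 shRNA. Of the 6 tested, 5 had log2 fold changes below 0 (median -0.20) and none passed, with KRT19 at -0.20 ± 0.083 and CDH1 at -0.32 ± 0.14 (log2, SE). VIL1 had at most 3 counts. Of the markers of other cell types, CD3E, CD14, PECAM1, COL1A2 and ALB had at most 3 counts in any library, whereas CD68 reached 778 and COL1A1 482 counts. Neither CD68 (-0.11 ± 0.16) nor COL1A1 (-0.20 ± 0.11) passed (log2, SE). Of this list 4 genes were tested, VWF and ACTA2 among them, and none passed. The part of these markers in the values above was not tested.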

How the data were processed

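Poly(A) RNA of 6 HCT116 libraries was read as single ends on a DNBSEQ instrument. The authors deposited estimated counts per gene, without normalization, and values that were read as FPKM because the depth they imply relative to the first library followed the count totals over 1360 genes. Per the labels, the submitters' processing notes name HISAT2 2.0.4, Bowtie2 2.2.5, RSEM 1.2.12 and DESeq2 1.4.5, and a mouse genome build, although cells and gene identifiers are human. The build used is therefore uncertain and no gene positions from it are given. The authors' group means were not used.

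Groups and replicate numbers came from the labels. Estimated counts were rounded, filtered (filterByExpr) and compared with edgeR 4.0.16 (TMM, quasi-likelihood test, Benjamini-Hochberg over 12959 genes, threshold 0.05) in R 4.3.3, without a replicate block. Standard errors are the log2 fold change divided by the square root of F, and intervals use the quantile of t at the fit's degrees of freedom. The script was tested on simulated data. Alternatives were other size factors, library totals, other filters, DESeq2 1.42.0, the block, limma 3.58.1 on log2(FPKM + 1) and log2(FPKM + 0.1), and libraries left out; pair directions in FPKM were added after seeing the data. Counting error of the 10 genes was between 0.743% and 4.73% of a value.

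The numbers pair the libraries: over 10161 genes, each library's deviation from its group mean had a correlation of 0.736, 0.558 and 0.554 with that of its same-numbered partner, and of -0.629 to 0.358 with other numbers. This pairing comes from the values and shared numbers, since no source states a shared day or batch.

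The members and lists were chosen with earlier results of these data known. All 10 members are named, with PLEK2; of each other list, genes past an adjusted p of 0.05 in either fit, otherwise the 2 with the smallest p; and the 3 genes nearest CCNB1 and CCND1 with a mean log2 CPM over 3. CCND2, CDK1 and EXOSC9, the ratios between members and the leave-out values were chosen after their values were seen. Promoter sequences are RefSeq's on GRCh38.p14; the list genes CCNA1, CDK15, CDX1 and PTPRC were not analysed here, and some results of the S phase list are not reported here. Python 3.11.15 with numpy 2.4.6, pandas 2.3.3, scipy 1.17.1 and matplotlib 3.10.9 was used for the rest.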

Additional observations from a re-analysis of the deposited data

How the results depend on the processing

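None of the 10 genes passed an adjusted p of 0.05, or 1.5-fold with an unadjusted p under 0.05, in the 19 alternatives fitted. CCND1 and CCND3 stayed below 0 and CCNE1, CCNE2 and CDK2 above 0 in each of them. With 1 library left out, log2 fold changes ranged from 0.196 to 0.370 for CCNE2, -0.229 to -0.118 for CCND1, -0.216 to -0.0380 for CCND3, 0.0612 to 0.206 for CCNE1, 0.0190 to 0.141 for CDK2, -0.0914 to 0.164 for CCNA2, -0.151 to 0.139 for CCNB1, -0.0612 to 0.110 for CCNB2, -0.0602 to 0.0141 for CDK4 and -0.0683 to 0.177 for CDK6, so that the last 5 took both signs. With the block, the sign also turned for CCNB1 (0.0242) without replicate 1 of both groups, for CCNB2 (-0.0676) without replicate 2, and for CCNA2 (-0.00241) and CDK4 (0.0205) without replicate 3. CDK4 was at 0.00667 with library totals, 0.00800 with library totals and the replicate block, 0.0102 with limma on log2(FPKM + 1) and 0.0103 on log2(FPKM + 0.1). The adjusted p of CCNE2 ranged from 0.0592, with library totals and the block, to 1.0, and DESeq2 with the block gave it none.

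Counts over all genes moved more, and the cause was not tested. The 0 genes with an adjusted p under 0.05 became 12 with DESeq2, 110 with the replicate block, 57 with DESeq2 and the block and 192 with library totals and the block. They were 0 to 1 with 1 library left out (1 without PLEK2 shRNA replicate 1), and 528, 18 and 297 with the block and without replicate 1, 2 or 3 of both groups. The 60 genes at 1.5-fold became 159 with all genes of at least 1 count, 30 with DESeq2, 98 with the block, 31 with DESeq2 and the block, 99 with library totals and the block and 16 with limma on log2(FPKM + 1). They were 64 to 159 with 1 library left out, and 151, 137 and 150 with the block and without replicate 1, 2 or 3 of both groups. The replicate term called 3 of the 10 genes, and 0 to 5 with libraries left out, where the share of all genes was not counted. Library totals, and the deposited FPKM (chosen after seeing the data), put 5 instead of 4 genes on 1 side in all 3 pairs: CCND3 left, and CCNA2 and CDK6 joined as higher. Counting error was at most 4.73% of a value, and it covers sampling of reads only. Without the block the widest interval was that of CCNB1, from -0.37 to 0.28 on the log2 scale.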

Other observations

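Other cyclins and CDKs outside the 10 genes differed between groups by amounts of similar size. Of 15 measured relatives, apart from those that act on transcription, 9 had log2 fold changes above 0 (median 0.08). None of the 15 passed in edgeR, with or without the block. CCNG2, an atypical cyclin linked to arrest, stood at 0.41 ± 0.23 and CCNJ at 0.27 ± 0.16 (log2, SE). Both were among the 4 of these 15 genes that were higher in all 3 pairs, against 19.9% of all genes. For CCNG2 the levels were 9.06, 6.92 and 6.51 CPM in shNC and 13.3, 8.87 and 7.74 CPM with PLEK2 shRNA. Of 14 cyclins and CDKs that act on transcription, 7 lay above and 7 below 0. With the block 0.725% of all genes were called lower, and 1 of the 14 passed. This was CDK10, at 57.7, 68.6 and 75.0 CPM in shNC and 48.1, 56.8 and 57.5 CPM with PLEK2 shRNA, and the groups touched: the highest shRNA library lay just below the lowest control in CPM, but above it in FPKM (34.15 against 33.51). Its log2 fold change was -0.31 ± 0.060 (SE) with the block, with an edgeR adjusted p of 0.0355, and 0.968 without it.

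The balance between E-type and D-type cyclins was looked at after their values were seen, so it has no test. Summed FPKM of CCNE1 and CCNE2 came to 19.8%, 17.7% and 19.0% of that of CCND1 and CCND3 in shNC replicates 1, 2 and 3, and to 28.6%, 20.5% and 22.9% with PLEK2 shRNA. The lowest shRNA library stood just above the highest control. PLEK2 shRNA replicate 1 stood farthest from the controls, and replicate 1 was also the highest of the controls.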
